A study of Mus musculus with 80 samples.

Results

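Left ventricular RNA of female C57Bl/6J mice was compared between the libraries titled F21 to F40 and those titled F1 to F20, 20 libraries on each side and 40 of the 80 in the series. Members were taken by title alone. Nothing in the labels tells what a run of title numbers stands for, and age, time since exposure, the hour of collection and any dates of extraction or sequencing are missing from them. Each run holds the same 4 treatments with 5 libraries of each, so a difference between the runs is not a difference between treatments. The treatments were sham (normal diet, 0 cGy), a Western diet (0 cGy), a mixed radiation field at 50 cGy on the normal diet, and gamma radiation at 100 cGy on the normal diet, with doses in centigray (cGy) of absorbed radiation. In F21-F40 the titles run from mixed field (21 to 25) through sham (26 to 30) and Western diet (31 to 35) to gamma (36 to 40), and F1-F20 has the same order from 1 to 20. The mixed field is labelled "Mix" with no further detail. The labels do not say that libraries came from separate animals, so p-values measure the spread between libraries, which may be technical. Of all pairs within a treatment and run, F38 and F39 (gamma) were the most alike, at a chi-square of 1.61 per degree of freedom over genes, where counting error alone gives about 1. The closest pair of each other group lay between 4.14 and 13.4. The counts of F38 and F39 differed by more than counting error, which does not tell whether they came from the same animal. Both were kept, and some of the counts of calls that rest on gamma are also given with the pair summed as 1 library. Within-gamma changes of single genes are given with both libraries counted.

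The RNAs that separate the runs belong to several kinds. Ribosomal RNA and 7SK RNA carry no poly-A tail, while Malat1 and Kcnq1ot1 are long noncoding RNAs kept in the nucleus. The circadian clock is a loop in which CLOCK (or NPAS2) and BMAL1 bind E-box sequences and switch on the Per and Cry genes, whose proteins then block CLOCK and BMAL1. The loop also drives Dbp, Tef and Hlf, transcription factors that bind D-box sequences, and nuclear receptors of the Nr1d and Ror families act on Bmal1. In the heart the clock times genes of metabolism and contraction over the day, so clock RNA levels depend on the hour at which tissue is taken.

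Such binding sequences were found in the promoters of some called clock genes, and the 4 of smallest p that hold one are printed here. Each line gives the 250 bases before the start of the canonical GENCODE vM39 transcript on GRCm39, 5′ to 3′ on the gene's strand, with the motif in capitals. Dbp (chr7:45354262-45354511, plus strand) and Tef (chr15:81695365-81695614, plus strand) encode D-box factors, and Per2 (chr1:91387047-91387296, minus strand) and Ciart (chr3:95789557-95789806, minus strand) encode repressors.
Dbp: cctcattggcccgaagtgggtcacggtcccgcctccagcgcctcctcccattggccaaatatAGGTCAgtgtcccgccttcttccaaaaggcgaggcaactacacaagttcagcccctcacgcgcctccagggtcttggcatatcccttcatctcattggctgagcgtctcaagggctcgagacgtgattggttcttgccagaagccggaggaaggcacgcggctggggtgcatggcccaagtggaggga
Tef: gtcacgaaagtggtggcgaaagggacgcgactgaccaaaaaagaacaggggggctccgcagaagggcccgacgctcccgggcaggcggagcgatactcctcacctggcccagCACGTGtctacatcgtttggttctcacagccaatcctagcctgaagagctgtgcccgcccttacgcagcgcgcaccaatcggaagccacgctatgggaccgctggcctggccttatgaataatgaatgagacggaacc
Per2: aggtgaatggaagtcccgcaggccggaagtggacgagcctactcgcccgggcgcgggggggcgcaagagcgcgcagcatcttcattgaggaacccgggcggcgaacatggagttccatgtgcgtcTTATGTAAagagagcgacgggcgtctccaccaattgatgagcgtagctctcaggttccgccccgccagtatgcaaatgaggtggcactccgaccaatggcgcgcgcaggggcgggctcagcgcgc
Ciart: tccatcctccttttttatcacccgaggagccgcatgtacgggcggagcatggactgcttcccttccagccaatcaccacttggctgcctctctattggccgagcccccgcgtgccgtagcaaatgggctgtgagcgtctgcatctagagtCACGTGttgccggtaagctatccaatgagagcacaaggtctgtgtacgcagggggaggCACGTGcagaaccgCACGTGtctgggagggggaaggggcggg
Dbp holds the nuclear receptor core AGGTCA, Tef an E-box CACGTG, Per2 a D-box TTANGTAA, and Ciart 3 E-boxes. The search covered both strands from 250 bases before the start to 50 bases after it. Of the 13 called clock genes, 3 had an E-box, 2 a D-box and 1 the receptor core in this window. Over 13548 promoters of all tested protein-coding genes these letters were found in 9.81% (E-box), 1.62% (D-box) and 13.2% (receptor core). A match describes the letters and is not a measured binding site.

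Library totals ran from 13532930 to 19434316 counts in F21-F40 and from 14696074 to 22143504 in F1-F20. The mean total was lower in F21-F40 (two-sided permutation test, adjusted p = 0.00861 over 3 measures). Ventricular muscle markers summed to 50300 to 66470 CPM (counts scaled to one common library size, with TMM factors) in F21-F40 and to 48560 to 64100 CPM in F1-F20, against 650 to 1065 and 599 to 989 CPM for atrial markers. The sums add up different genes, so their sizes show heart muscle but do not by themselves show ventricular identity. Library F37, labelled female and gamma, had 0.128 CPM of Xist, the RNA of the inactive X chromosome, with Y-linked genes at 0, while the median of F21-F40 was 126 CPM. Library F25, labelled mixed field, stood apart on the second principal component at 59.5, beyond F31 and F32 (Western diet, 30.7 and 30.8) and F23 and F24 (mixed field, 26.7 and 20.8). All 5 lay outside the F1-F20 range of -9.96 to 13.7, as did 14 F21-F40 libraries at the other end, down to -21.4. Counts were also made without F37 and without F25. Some of these, and the sum of F38 and F39, were chosen after seeing the data.

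Of 15931 genes tested, 3972 (24.9%) were called at an adjusted p under 0.05, 1918 (12%) higher and 2054 (12.9%) lower in F21-F40 (edgeR quasi-likelihood test, terms for treatment and run, Benjamini-Hochberg adjustment). Most differences were small, with a median absolute log2 fold change of 0.27 among called genes. Past 1 log2 unit there were 17 called rises and 327 called falls. Without normalization factors the calls divided as 2449 higher and 1494 lower. The ranges of the runs were separate for 1 gene (0.00628% of those tested), the predicted lncRNA Gm42941, which averaged 0.152 ± 0.093 CPM in F21-F40 and 1.45 ± 1.14 CPM in F1-F20 (SD, n = 20 each) and was singled out after its values were seen.

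Apart from predicted genes and TEC loci, described below, the named genes with the 10 largest falls included ribosomal, small nuclear and nuclear-retained RNAs. Rn18s-rs5 (ENSMUSG00000119584, chromosome 17, 40157244 to 40159092), an 18S ribosomal RNA gene, took 0.400% to 0.776% of all counts in F21-F40, with a median of 0.48%, and 0.102% to 5.03% in F1-F20, with a median of 3.57%. The runs overlapped only through F11, the lowest library of all, and F16 lay just above the F21-F40 range at 0.780%. The mean share differed by -2.42 percentage points (adjusted p = 6e-05 over 3 measures, at the smallest p the permutations can give), and Rn18s-rs5 changed by -2.52 ± 0.24 on the log2 scale (SE). All 4 measured members of the list of RNAs without a poly-A tail or with ribosomal sequence were called lower, with a median log2 fold change of -2.19, beside 0.00 over all genes. Rn7sk, the 7SK RNA that holds back transcription elongation, averaged 2.29 ± 0.73 CPM in F21-F40 and 12.4 ± 6.3 CPM in F1-F20. Lars2, the mitochondrial leucyl-tRNA synthetase and listed here because reads of ribosomal sequence are known to align to it, averaged 542 ± 117 CPM in F21-F40 and 2049 ± 981 CPM in F1-F20. Gm15564, annotated as a lncRNA and listed with the ribosomal RNAs, changed by -1.96 ± 0.18.

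Malat1 (ENSMUSG00000092341, chromosome 19, 5845717 to 5853602), a nuclear long noncoding RNA, ran from 313 to 691 CPM in F21-F40, with a median of 407, and from 518 to 3027 CPM in F1-F20, with a median of 1627. The runs overlapped only through the low F1-F20 libraries F8 and F16, at 526 and 518 CPM, and the high F21-F40 library F25. The ranges did not overlap within any of the 4 treatments. The log2 change was -1.91 ± 0.16 (adjusted p = 8.27e-12). Kcnq1ot1, the imprinted antisense RNA, changed by -1.55 ± 0.16, Lncpint by -2.23 ± 0.20 and Carmn, the host transcript of muscle microRNAs, by -2.50 ± 0.27. Across the list of nuclear long noncoding RNAs the picture was mixed, with 4 higher and 4 lower of 22 (36.4%, beside 24.9% of all genes). Snhg20 rose by 0.50 ± 0.11 and Mir22hg by 0.32 ± 0.07. Hipk2, a nuclear kinase, ran from 7.64 to 22.7 CPM in F21-F40 and from 11.2 to 158 CPM in F1-F20. The log2 changes of Hipk2 and Zbed6, a transcription factor gene nested in another gene, were -2.55 ± 0.26 and -2.41 ± 0.32. Mir6236, counted here at its annotated locus and not as the mature microRNA, changed by -2.71 ± 0.21. Albumin (Alb) changed by -1.88 ± 0.60 (adjusted p = 0.0182) and was not called by DESeq2.

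**Figure D1:**
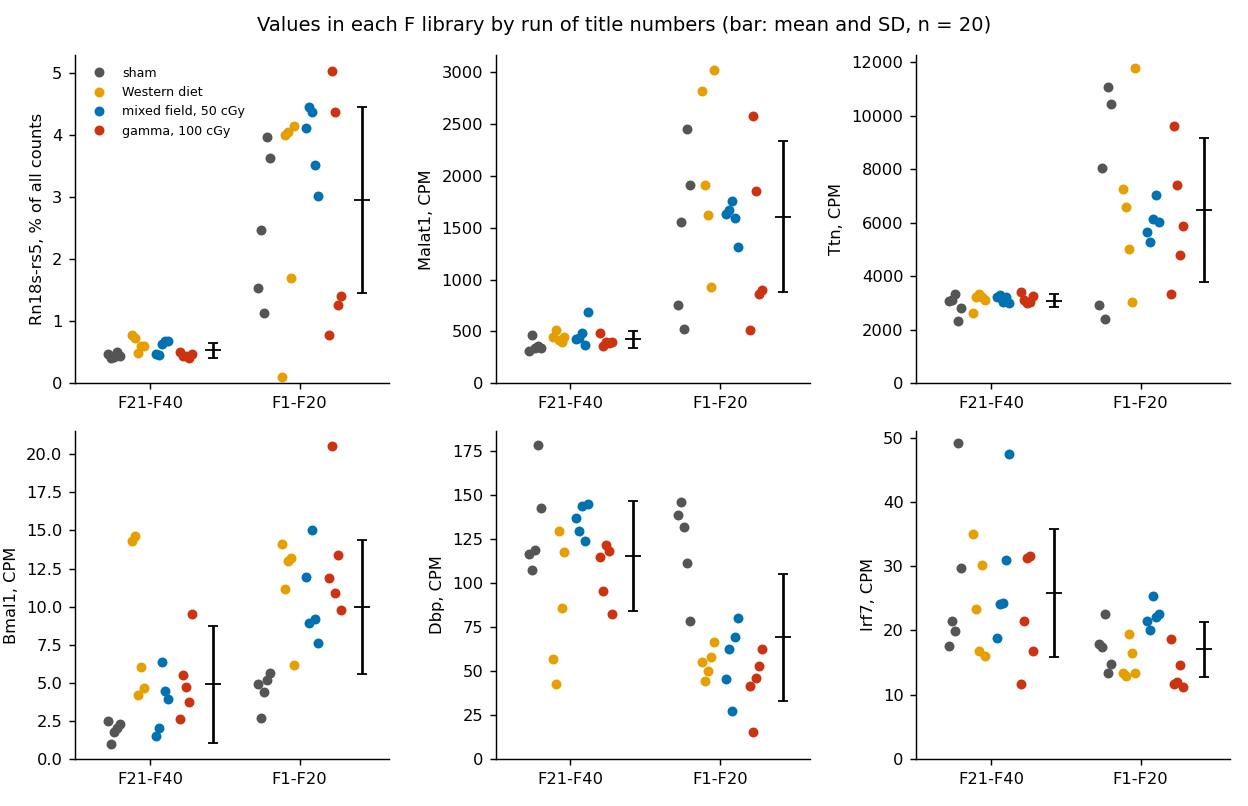
Each point is 1 F library, coloured by treatment, with F21-F40 left of F1-F20 and a bar for the mean and SD of 20 libraries; the y axes give the percent of all counts for Rn18s-rs5 and CPM for the genes. The F21-F40 libraries lie close together for Rn18s-rs5, Malat1 and Ttn, and the F1-F20 libraries spread widely, down to 518 CPM for Malat1.

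By annotation class, 1591 of the 2054 called falls were in nuclear protein-coding genes, 11.7% of the 13548 tested. Of the 327 called falls past 1 log2 unit only 56 were in that class. Of 319 loci annotated as TEC, a class that still needs experimental proof, 154 (48.3%) were lower and 7 (2.19%) higher in F21-F40, with a median log2 fold change of -0.49. Among 1467 lncRNA genes 246 (16.8%) were lower and 66 (4.5%) higher. Pseudogenes ran the other way, with 155 of 479 (32.4%) higher and 38 (7.93%) lower, and 15 of the 17 rises past 1 log2 unit. Reads of a pseudogene and of its parent gene can be split by the counting, so Gpi-ps (1.06 ± 0.15), Atp6-ps (0.99 ± 0.14), Rpl10a-ps1 (0.80 ± 0.16) and Rps7-ps3 (0.79 ± 0.21) are uncertain, as is Rpl38-ps2 at -1.59 ± 0.15. Pseudogenes took 0.212% to 0.322% of counts in F21-F40 and 0.113% to 0.376% in F1-F20, where F19 and F20 were highest. The other named rises were Comp and Dbp, described below, Ccn5, a secreted protein of the CCN family (0.92 ± 0.24), Susd5 (0.88 ± 0.28), Lingo1 (0.82 ± 0.21) and Cys1, a protein of the primary cilium (0.76 ± 0.08). Cys1 ran from 5.69 to 13.7 CPM in F21-F40 and from 4.42 to 7.77 CPM in F1-F20, and all 20 F21-F40 libraries lay above the F1-F20 median.

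Among nuclear protein-coding genes, those called higher and lower differed in the make-up of their transcripts. The 1673 called higher had a median canonical transcript of 2573 nt with 55.3% GC and a median gene span of 13451 bp. The 1591 called lower had a median of 5445 nt, 47.0% GC and 57760 bp, and all tested protein-coding genes 3508 nt and 50.5% GC. Genes were also ranked and cut into 5 equal bins, with the mitochondrial protein genes included. In the bin with the highest GC, 26.8% were called higher and 2.99% lower. In the bin with the lowest GC, 3.06% were called higher and 17.3% lower. By transcript length the longest bin had 3.47% called higher and 28.2% lower, and the shortest bin 20.6% higher and 6.08% lower. Median log2 fold changes over the bins of GC ran from -0.07 to 0.11 in F and from -0.04 to 0.01 in M libraries of the same title numbers. These shares are descriptions, with no test.

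**Figure D2:**
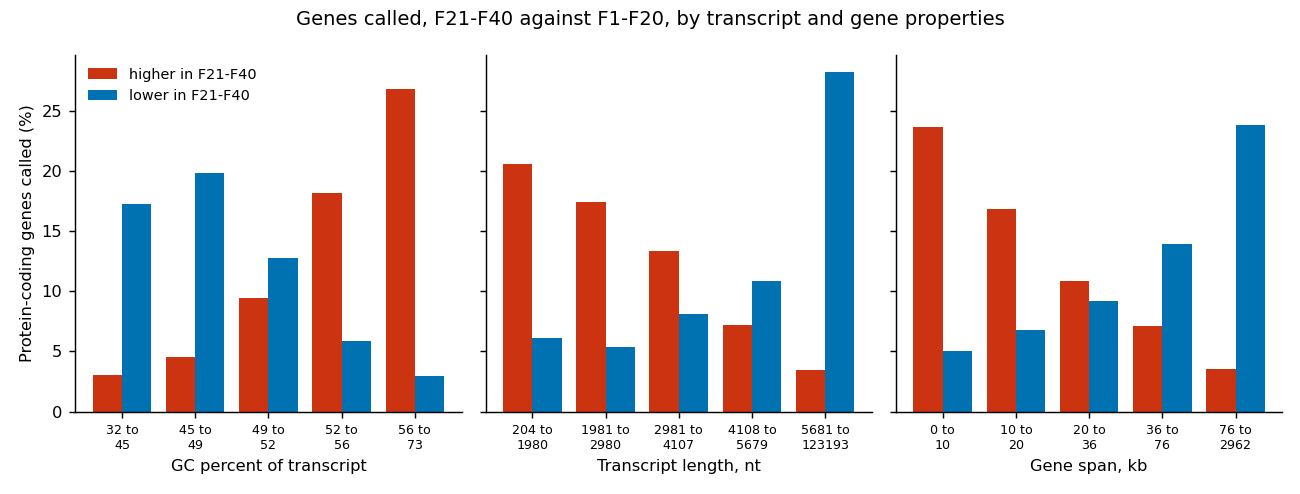
Bars give the percent of protein-coding genes called higher (red) or lower (blue) in F21-F40, for 5 equal bins of GC percent, transcript length (nt) and gene span (kb), from lowest to highest. The share called higher climbs with GC to 26.8%, and the share called lower climbs with transcript length to 28.2%.

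Of 24 clock genes 13 were called (54.2%, beside 24.9% of all genes). The called activators were lower and the called D-box factors and repressors higher in F21-F40. Of 4 activators 3 were lower, all 3 D-box factors were higher, 7 of 12 members of the repressor arm were higher, and none of 5 nuclear receptors was called. The median over the list was 0.18, beside 0.00 over all genes. Without F37 the same 13 were called, and without F25 there were 15 that held those 13.

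Clock (ENSMUSG00000029238, chromosome 5, 76342860 to 76452846) ran from 19.6 to 35.2 CPM in F21-F40, with a median of 26.2, and from 25 to 58.0 CPM in F1-F20, with a median of 36.4. No F21-F40 library reached the F1-F20 median, and the log2 change was -0.50 ± 0.06 (adjusted p = 1.47e-07). Bmal1, its partner (ENSMUSG00000055116, chromosome 7, 112806152 to 112914735), averaged 4.89 ± 3.86 CPM in F21-F40 and 9.98 ± 4.41 CPM in F1-F20, a change of -1.11 ± 0.18 (adjusted p = 1.69e-05). Within the mixed field the Bmal1 values were 1.5, 2.05, 6.36, 4.49 and 3.95 CPM in F21-F25 and 11.9, 8.91, 15, 9.20 and 7.60 CPM in F1-F5. Within sham they were 2.50, 0.977, 1.74, 2.03 and 2.27 CPM in F26-F30 and 4.90, 2.66, 4.40, 5.16 and 5.61 CPM in F6-F10. Both sets were separate between the runs, as were those of gamma, while within the Western diet F31 and F32 lay above all of F11-F15, at 14.3 and 14.6 CPM. Npas2, the paralog of Clock, averaged 2.55 ± 1.73 CPM in F21-F40 and 3.69 ± 1.38 CPM in F1-F20 (-0.56 ± 0.17, adjusted p = 0.0128), and was not called without treatment terms. Bmal2 changed by -0.07 ± 0.10 and was not called.

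Among the outputs of the clock, Dbp (ENSMUSG00000059824, chromosome 7, 45354512 to 45359627) ran from 42.5 to 178 CPM in F21-F40, with a median of 119, and from 15.1 to 147 CPM in F1-F20, with a median of 60.5. It rose by 0.83 ± 0.15 (adjusted p = 5.54e-05) and 18 of 20 F21-F40 libraries lay above the F1-F20 median. Within the mixed field the values were 137, 130, 144, 124 and 145 CPM in F21-F25 and 45.4, 62.8, 27.2, 69.6 and 80 CPM in F1-F5, with no overlap. The log2 change was 1.28 within gamma, 0.66 within the Western diet and 0.13 within sham. There the F26-F30 values of 117, 107, 119, 178 and 143 CPM overlapped the F6-F10 values of 139, 147, 132, 111 and 78.7 CPM. The interaction with treatment was not called for Dbp (adjusted p = 0.125). Tef rose by 0.43 ± 0.08 and Hlf by 0.60 ± 0.13, with means of 215 ± 47 and 34.1 ± 11.5 CPM in F21-F40 and of 160 ± 32 and 22.8 ± 8.0 CPM in F1-F20.

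Among the repressors Per2 rose by 0.59 ± 0.14, Per3 by 0.47 ± 0.13, Ciart by 0.53 ± 0.14 and Bhlhe41 by 0.30 ± 0.08. Cry2 rose by 0.26 ± 0.09 and Csnk1e, a kinase of PER proteins, by 0.24 ± 0.04. Per2 averaged 34.8 ± 12.3 CPM in F21-F40 and 22.5 ± 8.4 CPM in F1-F20, and the runs overlapped. Cry1 (0.25 ± 0.11, adjusted p = 0.0755), Csnk1d (0.10 ± 0.04), Per1 (0.18 ± 0.12), Bhlhe40 (0.06 ± 0.06) and Nfil3 (-0.04 ± 0.10) were not called. The nuclear receptors gave 0.18 ± 0.09 for Nr1d2, -0.06 ± 0.10 for Nr1d1, -0.09 ± 0.08 for Rora and -0.14 ± 0.15 for Rorb, none called. Cirbp and Rbm3, RNA-binding proteins that respond to cooling, gave 0.22 ± 0.09 and -0.01 ± 0.07 and were not called.

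**Figure D3:**
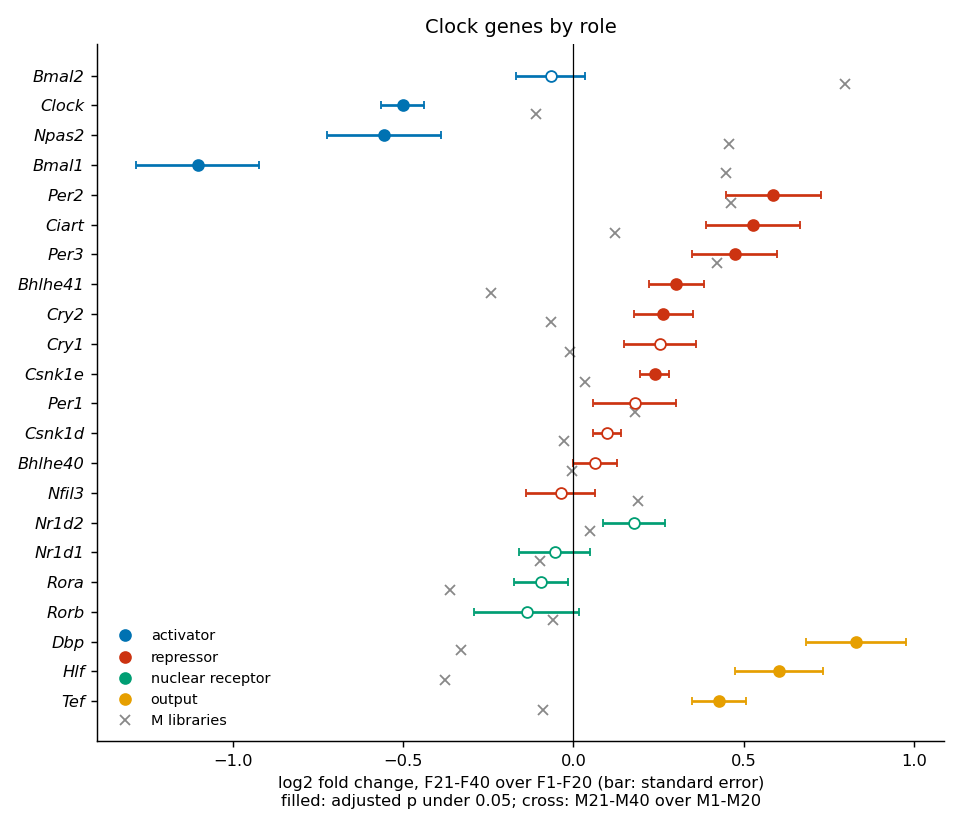
Points give the log2 fold change of F21-F40 over F1-F20 with its standard error for the clock genes reported here, grouped by role and filled where the adjusted p is under 0.05; crosses give the same contrast in M libraries. Activators lie left of 0 down to -1.11 for Bmal1, and the D-box factors lie right of 0 up to 0.83 for Dbp.

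Splicing factors were called at close to the background rate, with 15 higher and 15 lower of 123 (24.4%) and a median of 0.03. Without normalization factors they had 25 higher and 9 lower. Srsf9, an SR protein, averaged 18.5 ± 2.8 CPM in F21-F40 and 14.6 ± 1.9 CPM in F1-F20 (0.34 ± 0.06, adjusted p = 0.000133). Nktr, a nuclear cyclophilin with an SR-rich region, averaged 20.2 ± 3.0 CPM in F21-F40 and 32.4 ± 12 CPM in F1-F20 (-0.67 ± 0.14). The hnRNP proteins, which coat nascent RNA, had 3 higher and 6 lower of 26. Hnrnpu fell by 0.16 on the log2 scale, Syncrip by 0.19 and Hnrnpc by 0.15, and Hnrnpab rose by 0.22. Members called higher had a median transcript of 2192 nt and those called lower 6194 nt, the same order as among all protein-coding genes.

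Mitochondrially encoded RNAs had 8 higher and 1 lower of 15 (60.0% called) and a median of 0.33. The share of all counts from the mitochondrial genome was 25.3% ± 2.3 in F21-F40 and 23.6% ± 3.0 in F1-F20 (SD, n = 20 each; permutation test, adjusted p = 0.0449 over 3 measures). The difference was 5.55 percentage points within the mixed field, 1.97 within sham, 1.15 within the Western diet and -1.68 within gamma. The list had 11 higher within the mixed field (8 without F25) and 6 higher within the Western diet, where 9.37% and 2.46% of all genes were higher. It had no call within sham or gamma, where only 0.841% and 2.22% of all genes were called. Its median was 0.52 within the mixed field, 0.28 within the Western diet, 0.29 within sham and -0.23 within gamma. Of the 15 genes, 5 were called for the interaction of run and treatment. mt-Nd6, a complex I subunit on the light strand, ran from 3789 to 7430 CPM in F21-F40 and from 2553 to 4392 CPM in F1-F20, with all 20 F21-F40 libraries above the F1-F20 median (0.45 ± 0.07). mt-Nd5 rose by 0.33 ± 0.07 and mt-Nd2 by 0.29 ± 0.07. mt-Co2 (0.73 ± 0.13), mt-Co3 (0.65 ± 0.14) and mt-Atp6 (0.73 ± 0.14) also rose, and their counts are uncertain because near copies of the mitochondrial genome lie in nuclear DNA, among them Atp6-ps. The cytochrome oxidase gene mt-Co1 (0.03), mt-Nd1 (0.02), mt-Nd4 (0.04) and mt-Cytb (0.11) were not called. The organelle's ribosomal RNA mt-Rnr1 fell by 0.63, and mt-Rnr2 had a change of -0.40 that was not called.

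Nuclear genes of the respiratory chain had 9 higher and 22 lower of 83 (37.3% called), with a median of -0.08. Ndufb9 of complex I (ENSMUSG00000022354, chromosome 15, 58805594 to 58814819) ran from 39.7 to 100 CPM in F21-F40, with a median of 53.6, and from 52.7 to 147 CPM in F1-F20, with a median of 107. It changed by -0.83 ± 0.10 (adjusted p = 6.15e-08), and no F21-F40 library reached the F1-F20 median. Atp5if1, the inhibitor of ATP synthase, changed by -0.84 ± 0.11, Ndufb1 by -0.75 ± 0.10, Cox7a1 by -0.63 ± 0.10, Cox8b by -0.62 ± 0.10 and the ATP synthase subunit Atp5mj by -0.47 ± 0.08. Members called lower had a median transcript of 940.5 nt, below the 1522 nt of those called higher, the opposite order to all protein-coding genes. Without F25, 7 were higher and 28 lower, and without normalization factors 16 were higher and 18 lower.

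Cytosolic ribosomal proteins had 6 higher and 17 lower of 81 (28.4% called), and mitochondrial ribosomal proteins 13 higher and 10 lower of 78 (29.5%), both close to the background. Rps27 ran from 63.3 to 146 CPM in F21-F40 and from 73.3 to 198 CPM in F1-F20, and changed by -0.75 ± 0.10 (adjusted p = 1.88e-07). Rps21 changed by -0.66 ± 0.09, Rpl38 by -0.60 ± 0.11, Rpl35a by -0.44 ± 0.09, Rpl36a by -0.40 ± 0.08 and Rps24 by -0.27 ± 0.06. Many ribosomal protein genes have processed copies elsewhere in the genome, so their counts may have been shared. Without F25 the count of higher members was 1 and of lower members 18, and without normalization factors the counts were 9 and 12. The mitochondrial ribosomal proteins then had 18 higher and 8 lower. In the mitochondrial ribosome Mrps18c changed by -0.64 ± 0.11, Mrpl32 by -0.38 ± 0.06 and Mrps22 by -0.30 ± 0.05, while Mrpl10 (0.25 ± 0.04), Mrpl4 (0.27 ± 0.06) and Mrpl43 (0.30 ± 0.07) rose. Of 20 ribosome biogenesis genes 2 were higher and 3 lower (25%, beside 24.9% of all genes).

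Matrix genes had 11 higher and 10 lower of 94 (22.3%), with a median of -0.03. Fbn1, fibrillin of elastic microfibrils, ran from 22.3 to 92.9 CPM in F21-F40 and from 50.5 to 139 CPM in F1-F20 (-0.70 ± 0.14, adjusted p = 0.000237). Spon2 (-0.84 ± 0.20) and the membrane protease Mmp14 (-0.39 ± 0.10) also fell. Comp, a cartilage and tendon protein, ran from 3.88 to 36.2 CPM in F21-F40 and from 1.35 to 15.2 CPM in F1-F20, and rose by 0.94 ± 0.28 (adjusted p = 0.0107). Ccn1 rose by 0.30 ± 0.08, Mgp by 0.30 ± 0.08 and the laminin chain Lamb2 by 0.21 ± 0.05. Without F25, 11 were higher and 6 lower, and without normalization factors 12 and 6.

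**Figure D4:**
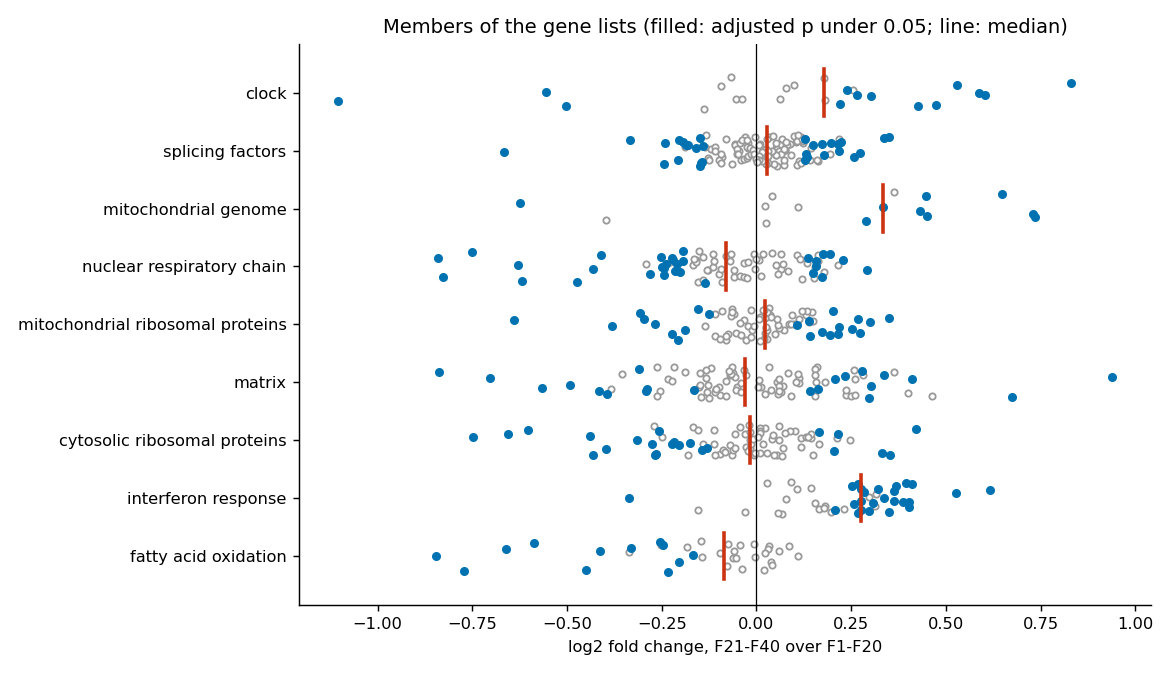
Each point is 1 gene of a list at its log2 fold change of F21-F40 over F1-F20, filled where the adjusted p is under 0.05, with a red line at the list's median. The median lies at 0.33 for the mitochondrial genome, 0.28 for the interferon response, 0.18 for the clock and -0.08 for the nuclear respiratory chain.

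Genes of the interferon response had 24 higher and 1 lower of 43 (58.1%), with a median of 0.28. Irf7, the transcription factor that amplifies interferon signalling, ran from 11.6 to 49.2 CPM in F21-F40, with a median of 23.7, and from 11.2 to 25.3 CPM in F1-F20, with a median of 17 (0.62 ± 0.13, adjusted p = 0.000316). Usp18, which damps the pathway, rose by 0.53 ± 0.10, Gbp3 by 0.41 ± 0.09 and the peptide transporter Tap1 by 0.40 ± 0.10. Fatty acid oxidation had 0 higher and 12 lower of 36 (33.3%). Within the mixed field, with F25 kept, 7 were higher and 2 lower, beside 9.37% and 8.81% of all genes. The medians were 0.07 there, -0.22 within sham, -0.15 within the Western diet and -0.16 within gamma. The interaction was called for 3 of the 36. Pdk4, a kinase that restrains glucose oxidation, averaged 248 ± 101 CPM in F21-F40 and 447 ± 348 CPM in F1-F20 (-0.85 ± 0.17). Angptl4 changed by -0.66 ± 0.17, Ppargc1b by -0.59 ± 0.14 and the fatty acid transporter Cd36 by -0.25 ± 0.05. Glycolysis had 8 higher and 2 lower of 25 (40%), among them Gpi1 (0.25 ± 0.04), the glucose transporter Slc2a1 (0.29 ± 0.06), Pdk2 (0.28 ± 0.06) and Pgam2 (0.30 ± 0.08). Endoplasmic reticulum chaperones had 1 higher and 4 lower of 20 (25%, beside 24.9% of all genes). Hspa5 changed by -0.27 ± 0.05 and Hsp90b1 by -0.32 ± 0.05. Of 43 heat shock chaperones 5 were higher and 9 lower (32.6%), with Hspb7 at 0.32 ± 0.06 and Hspb6 at 0.38 ± 0.08. Ier3, an early response gene, rose by 0.54 ± 0.06, and all 20 F21-F40 libraries lay above the F1-F20 median. Immediate early genes had 2 higher and 1 lower of 23 (13%, below the 24.9% of all genes). Among 30 genes of the p53 and DNA damage response 6 were higher, such as Gadd45a (0.41 ± 0.09) and Trp53 itself (0.30 ± 0.09), and 1 was lower, the kinase Atm (-0.57 ± 0.15), together 23.3% and near the share of all genes. Of 24 cell cycle genes 1 was called (4.17%), Ccne1 at 0.55 ± 0.16, and of 14 hypertrophy genes 1 (7.14%), Xirp2 at -0.22 ± 0.08. Both shares lay below the 24.9% of all genes. The call of Xirp2 was lost without F25, without normalization factors and in the fit of all 80 libraries. Glucocorticoid-induced genes had 2 higher and 1 lower of 14 (21.4%, near the share of all genes), with Tsc22d3 at 0.34 ± 0.09. Cholesterol and fatty acid synthesis had 1 higher and 4 lower of 29 (17.2%, below the share of all genes), with Acaca at -0.36 ± 0.07.

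Genes of the sarcomere were called at 30.8%, and those of calcium handling and channels at 25.9%, beside 24.9% of all genes. Ttn, the giant sarcomere spring with a canonical transcript of 107543 nt, ran from 2345 to 3425 CPM in F21-F40 and from 2393 to 11774 CPM in F1-F20, with medians of 3124 and 6070 CPM, and changed by -1.07 ± 0.14 (adjusted p = 2.85e-07). Only F6, F8, F14 and F16 of the F1-F20 libraries lay within the F21-F40 range. The calcium release channel Ryr2 changed by -0.62 ± 0.12, the sodium-calcium exchanger Slc8a1 by -0.47 ± 0.09 and the potassium channel Kcnd3 by -0.50 ± 0.08. Over the lists 3 of 26 sarcomere genes were higher and 5 lower, and 2 of 27 calcium and channel genes higher and 5 lower. The 5 lower sarcomere genes had a median transcript of 11967 nt and the 3 higher ones 3134 nt, among them Des (0.25 ± 0.05) and Tcap (0.34 ± 0.10).

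Markers of other cell types differed in the share called, with 24.9% of all genes called. It was 50% for smooth muscle, 42.9% for pericytes, 40% for skeletal muscle and 25% for endothelium. For fibroblasts it was 8.33% and for macrophages 7.14%. These lists are short, with at most 14 genes tested. With each library left out in turn, Vtn of the pericyte list lost its call in 20 of 40 fits. Ckm of the skeletal muscle list lost its call in 35. Smooth muscle markers had 3 higher and 0 lower of 6, with Myh11 at 0.65 ± 0.16, and their summed level ran from 362 to 566 CPM in F21-F40 and from 310 to 462 CPM in F1-F20. In bulk tissue fewer cells of a type and less RNA per cell cannot be told apart. Endothelial markers had 3 higher of 12, pericyte markers 2 higher and 1 lower of 7, and fibroblast markers 1 higher of 12. Endothelial markers summed to 1747 to 2624 CPM in F21-F40 and 1584 to 2284 CPM in F1-F20, and fibroblast markers to 1505 to 2909 and 1997 to 2825 CPM. Macrophage markers had 0 higher and 1 lower of 14, Cd163 at -0.59 ± 0.11. T and natural killer cell, neutrophil, adipocyte and epicardial markers had no call among 18 tested. B cell, erythroid, Schwann cell, skeletal muscle and atrial markers had 1 or 2 calls each of 5 to 7 tested. Their part in the list results was not tested.

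The ribosomal RNA share moved with the runs, so the model was also fitted with its log2 value as a term. Then 392 genes were called, 92 higher and 300 lower, of which 382 were among the 3972. F11 had a share of 0.102%, far below the 0.780% to 5.03% of the other F1-F20 libraries. The fit with this term was not repeated without F11. The lists then held 3 calls for the clock (Clock, Bmal1 and Csnk1e), 2 for splicing factors, 2 for the mitochondrial genome, 7 for the nuclear respiratory chain, 3 for mitochondrial ribosomal proteins, 0 for matrix and 2 for cytosolic ribosomal proteins. Of the 2 mitochondrial genome calls, 1 was also called without the term. List medians in the same order were 0.14, 0.01, 0.34, -0.07, 0.03, 0.04 and -0.03 with the term. Without it they were 0.18, 0.03, 0.33, -0.08, 0.02, -0.03 and -0.02. Interferon genes had 1 call at a median of 0.29, and fatty acid oxidation 0 at a median of -0.12. Malat1, Kcnq1ot1, Rn7sk, Hipk2, Ttn, Ndufb9, Rps27, Cys1 and Ier3 were still called, while Lars2 turned to 0.26 with an adjusted p of 0.0494. Because the share and the run differ together, with only F11 of F1-F20 within or below the F21-F40 range, their parts cannot be told apart.

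Run differences were next taken within each treatment, 5 libraries against 5. There were 2896 genes called within the mixed field (18.2%), 994 within the Western diet (6.24%; 2.46% higher and 3.78% lower), 354 within gamma (2.22%) and 134 within sham (0.841%; 0.207% higher and 0.634% lower). The interaction of run and treatment, tested over all 4, was called for 294 genes (1.85%). Single libraries moved these counts. Without F25 there were 1562 within the mixed field and 63 for the interaction, and without F37 there were 158 within gamma and 166 for the interaction. With F38 and F39 summed there were 111 within gamma and 167 for the interaction. Leaving out each library in turn gave 66 (without F9) to 242 (without F8) within sham, 395 (without F12) to 2377 (without F14) within the Western diet and 60 (without F17) to 810 (without F16) within gamma. The mixed field count reached 3879 without F22, and the interaction count ran from 58 without F3 to 870 without F22.

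Several lists had opposite directions within different treatments. Nuclear respiratory chain genes had 27 higher and 1 lower within the mixed field (9.37% and 8.81% of all genes), with a median of 0.26. Within gamma they had 0 higher and 24 lower (0.854% and 1.37%), at a median of -0.32. The Western diet gave 0 higher and 11 lower (2.46% and 3.78%) and a median of -0.11. Sham gave 0 higher and 4 lower (0.207% and 0.634%) and a median of -0.13. Without F25 the mixed field count was 17 higher and 0 lower, and the gamma count was 0 higher and 11 lower without F37 and 0 higher and 12 lower with F38 and F39 summed. The interaction was called for 12 of the 83. Cytosolic ribosomal proteins had 23 higher and 1 lower within the mixed field and 0 higher and 9 lower within gamma, with 2 called for the interaction. They had 0 higher and 7 lower within the Western diet and 0 higher and 1 lower within sham. Without F25 their mixed field count was 6 higher, and their gamma count was 4 lower without F37 and 2 lower with F38 and F39 summed. Within the mixed field the splicing factors had 32 higher and 8 lower of 123, and without F25 they had 14 and 2. Within the mixed field 9 of 12 SR proteins were higher. The interaction was called for 1 of the 123, an SR protein, so a difference between treatments was not shown for the others.

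Matrix genes had 1 higher and 39 lower of 94 within the mixed field, a median of -0.45, against 2 higher and 1 lower within gamma, none within sham and 1 higher within the Western diet. Without F25 there were 26 lower. The interaction was called for 8. In the same libraries macrophage markers had 0 higher and 9 lower of 14 within the mixed field, fibroblast and endothelial markers 3 lower of 12 each, and T and natural killer cell markers 3 lower of 7 with a median of -1.34. Without F25 these were 7, 2, 2 and 0. The T and natural killer cell markers summed to 21.5 CPM in F5 and to 4.36 to 7.91 CPM in F1-F4. In F21-F25 they summed to 3.42 to 5.72 CPM, and the list was not counted without F5. Within the mixed field the macrophage markers summed to 220, 263, 213, 230 and 206 CPM in F21-F25. All lay below the 388, 313, 456, 297 and 419 CPM of F1-F5. Over all treatments the macrophage sums ran from 190 to 585 CPM in F21-F40 and from 214 to 456 CPM in F1-F20. The part of these cell markers in the matrix result was not tested. Fbn1 had 36.2, 40.2, 33.8, 33.5 and 22.3 CPM in F21-F25, all below the 107, 78.7, 139, 94.8 and 68.1 CPM of F1-F5, a change of -1.55.

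Interferon genes were not higher within the mixed field, at 0 higher and 1 lower of 43 and a median of 0.02, while within gamma 6 were higher at a median of 0.46, or 2 at 0.39 with F38 and F39 summed. None of the 43 was called for the interaction. Clock genes had 10 higher and 2 lower within the mixed field, 3 higher and 2 lower within gamma (1 higher and 0 lower with F38 and F39 summed), 1 higher and 1 lower within the Western diet and no call within sham. Of all genes, 9.37% were higher and 8.81% lower within the mixed field, and 0.854% higher and 1.37% lower within gamma. Calls over all genes within the mixed field came to 2896, or 1562 without F25. Per1 was the 1 clock gene called for the interaction (adjusted p = 0.0478), at 0.96 within the mixed field, 0.09 within gamma, -0.20 within the Western diet and -0.10 within sham, and it was not called for it without F25 (adjusted p = 0.142), without F37 (0.0523) or with F38 and F39 summed (0.0591). A difference between treatments was not shown for the other clock genes.

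C4b, the complement component (ENSMUSG00000073418, chromosome 17, 34947354 to 34962912), had 32.8, 44.4, 22.8, 29.3 and 37.3 CPM in F21-F25 and 95.3, 42.4, 143, 54.0 and 143 CPM in F1-F5. Within gamma it had 39.2, 85.8, 73.7, 74.0 and 44.9 CPM in F36-F40 and 55.6, 31.7, 23.4, 23.9 and 19.5 CPM in F16-F20. The F21-F25 values lay below all of F1-F5 but F2, and the F36-F40 values above all of F16-F20 but F16. The changes were -1.52 ± 0.29 within the mixed field and 1.05 ± 0.29 within gamma, both called. The interaction had an adjusted p of 0.00465, or 0.0128 with F38 and F39 summed. Sfrp1, a secreted Wnt antagonist, changed by -1.31 ± 0.22 within the mixed field and by 0.43 ± 0.21 within gamma. Upf3b of nonsense-mediated decay changed by 0.54 ± 0.09 within the mixed field and Acaa2 of fatty acid oxidation by 0.53 ± 0.10, against 0.16 ± 0.09 and -0.26 ± 0.10 within gamma. mt-Co2 had 255, 199, 335, 380 and 321 CPM in F21-F25 and 84.3, 109, 96.2, 126 and 114 CPM in F1-F5, a change of 1.49 ± 0.19. Within gamma the change was -0.21 ± 0.19, and F19 and F20 stood apart there at 363 and 288 CPM. mt-Co3, mt-Nd3, mt-Atp6 and Atp6-ps were also called for the interaction, with changes of 1.46, 1.29, 1.41 and 1.54 within the mixed field and of -0.36, -0.70, -0.20 and -0.03 within gamma.

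**Figure D5:**
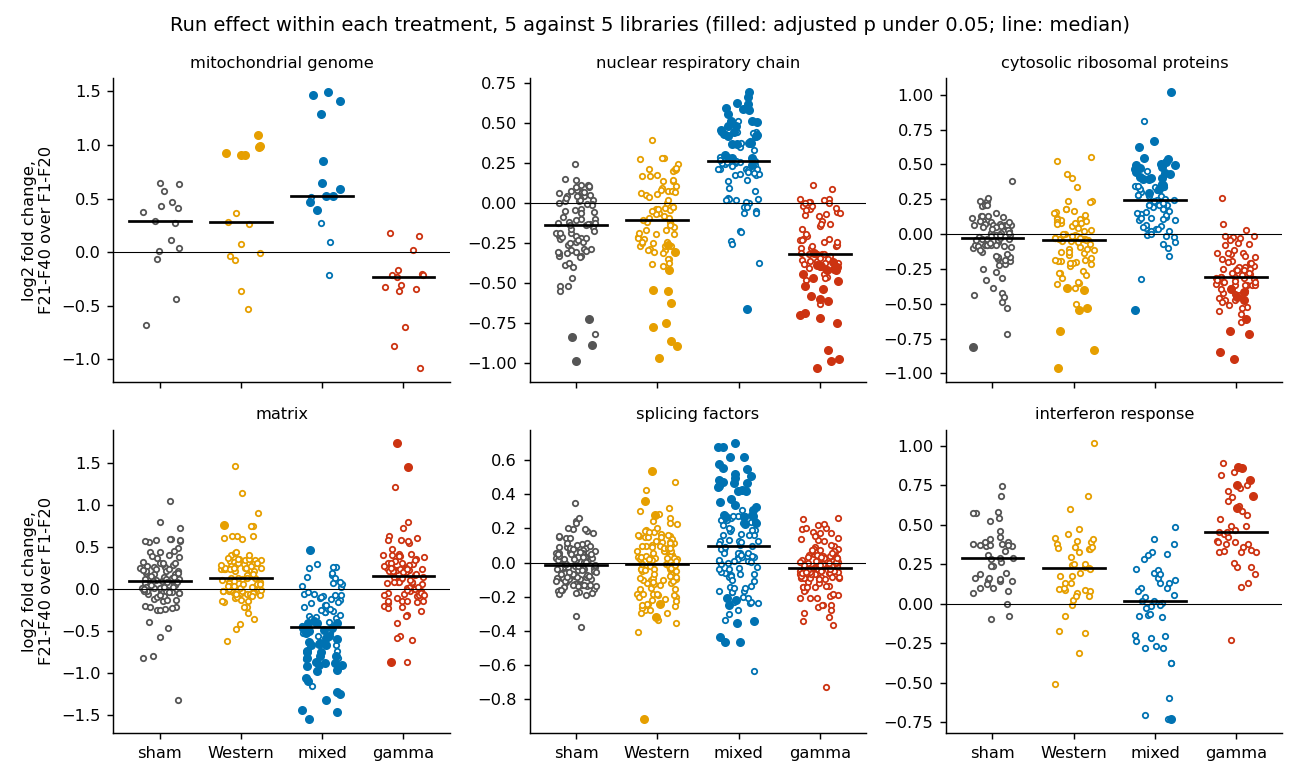
Each point is 1 gene at its log2 fold change of F21-F40 over F1-F20 within 1 treatment (5 against 5 libraries), filled where the adjusted p is under 0.05, with a line at the median, for 6 lists. Respiratory chain medians are 0.26 within the mixed field, -0.32 within gamma, -0.11 within the Western diet and -0.13 within sham. The matrix median is -0.45 within the mixed field.

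M libraries carry the same title numbers and treatments in male mice, and their runs were compared in the same way. In the fit of all 80 libraries M21-M40 differed from M1-M20 in 4668 of 16688 genes (28%), 2685 higher (16.1%) and 1983 lower (11.9%). The difference of the run effects, F minus M, was called for 4209 genes (25.2%), 1896 higher (11.4%) and 2313 lower (13.9%). Of the F calls, 17.3% were called in the same direction in M, and 53.6% had the same sign. Rn18s-rs5 changed by -2.52 in F and by 1.40 in M, Lars2 by -1.90 and 1.65, and Malat1 by -1.91 and 0.40, with adjusted p of the F minus M difference of 1.25e-11, 9.82e-10 and 3.78e-12. Rgs9, a regulator of G protein signalling, changed by -1.66 in F and by 1.69 in M, and Gpr17, an orphan receptor, by -0.95 and 1.10. Mir6236 and Lncpint fell in F and changed by 0.06 each in M, neither called there. Rnf187, a ubiquitin ligase, rose by 0.26 in F and fell by 0.20 in M. Rn7sk fell in both, by 2.41 in F and by 2.46 in M, with a difference of 0.06 ± 0.45.

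The run effect of 11 clock genes differed between F and M, among them those that follow. Bmal1 (-1.55 ± 0.28), Npas2 (-1.01 ± 0.25), Bmal2 (-0.86 ± 0.19) and Clock (-0.39 ± 0.11) were lower in F than in M, and Dbp (1.17 ± 0.18), Hlf (0.98 ± 0.19), Bhlhe41 (0.55 ± 0.11), Tef (0.52 ± 0.10), Cry2 (0.34 ± 0.11) and Csnk1e (0.21 ± 0.07) were higher. Per2 and Per3 rose in both, by 0.59 and 0.47 in F and by 0.46 and 0.42 in M. Splicing factors had 15 higher and 15 lower of 123 in F but 63 higher and 6 lower in M, and the F minus M difference was called higher for 6 and lower for 59. SR-rich coactivators and kinases had 24 of 27 higher in M and 3 of 27 higher in F. Interferon genes had 24 higher of 43 in F and 9 in M, with 0 higher and 4 lower for the difference.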

How the data were processed

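Poly-A selected RNA (RNeasy columns, NEBNext Ultra II, per the labels' protocols) of left ventricle gave the authors' deposited table of raw counts for 56941 Ensembl genes. Reads were checked with FastQC 0.11.9 and aligned with STAR 2.7.8a to GRCm39, per the submitters' processing notes; counter, annotation and strand setting were not given in the sources used here. Without strand, a gene and its antisense partner cannot be told apart. The 40 F libraries were grouped by title, and members and lists were chosen with earlier results of these data known.

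Counts were filtered with filterByExpr (15931 genes kept), scaled with TMM factors and fitted with edgeR 4.0.16 in R 4.3.3, with terms for treatment and run. A fit of 8 groups gave within-treatment contrasts and the interaction, and a fit of all 80 libraries gave F minus M. Calls are at a Benjamini-Hochberg adjusted p under 0.05. Totals of 13532930 to 22143504 counts per library limit precision by counting error only. Named genes are the 10 largest changes in each direction past a mean of 1 CPM and the 10 smallest p (both without predicted genes), up to 6 members per main list and 4 per other list, all clock genes, and the 8 smallest p of each difference. Some of them are not reported here. Gene models come from GENCODE vM39 and promoters from GRCm39. Alternatives were limma 3.58.1, DESeq2 1.42.0, other normalizations and filters, and leaving libraries out. F and M libraries with the same number were not paired, so no block entered the fits.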

Additional observations from a re-analysis of the deposited data

Results flagged for a closer look

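The mitochondrial share of counts had 1 library far from the other 4 of its group for F35 (Western diet, 23.05%, nearest 26.14%) and for F4 (mixed field, 22.76%, nearest 19.67%). These were 2 of 88 groups of 5 tested, and chance flags about 1 in 20.

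The run effect differed between treatments by the interaction test for C4b, Sfrp1, Upf3b, mt-Co2 and mt-Co3 (edgeR adjusted p = 0.00465 each), for mt-Nd3, Acaa2 and Atp6-ps (0.00699 each), and for mt-Atp6 (0.00743). It also differed for Aldh1a2 (0.0222), Flt1 and Mrc1 (0.0234 each), Ccnd1 (0.0368), Stard10 (0.0382), Tcap (0.0459) and Per1 (0.0478). Of these, Flt1, Mrc1, Aldh1a2, Ccnd1, Stard10, Tcap and Per1 were not called without F25, at adjusted p of 0.065, 0.0676, 0.0565, 0.111, 0.105, 0.113 and 0.142. Without F37, Per1 (0.0523), Ccnd1 (0.0575) and Stard10 (0.0626) were not called. With F38 and F39 summed as 1 library, Per1 (0.0591) and Tcap (0.0601) were not called.

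The run effect differed between F and M libraries for Mir6236 and Malat1 (adjusted p = 3.78e-12 each), Rn18s-rs5 (1.25e-11), Lars2 (9.82e-10), Rnf187 (1.27e-09), Lncpint (1.49e-09), Gpr17 (2.67e-09) and Rgs9 (2.78e-09). Among clock genes it differed for Dbp (1.42e-06), Bmal1 (1.52e-05), Hlf (4.01e-05), Bhlhe41 (7.85e-05), Tef (0.000101), Bmal2 (0.000469), Npas2 (0.00132), Clock (0.00756), Csnk1e (0.0165) and Cry2 (0.0215).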

How the results depend on the processing

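With the log2 Rn18s-rs5 share as a term, calls came to 392 genes, and to 3 for clock, 2 for splicing factors, 2 for the mitochondrial genome, 7 for the nuclear respiratory chain, 3 for mitochondrial ribosomal proteins, 0 for matrix and 2 for cytosolic ribosomal proteins. Of 213 named genes 102 lost their call there, and Lars2 (0.26), Hbb-bs (0.049) and Rgs9 (0.17) turned positive. The cause was not tested, and the fit with this term was not repeated without F11, the library of lowest share. Without a low-count filter 5828 genes were called, 1868 higher and 3960 lower; DESeq2 called 4201 and limma-voom 3801. limma-voom called 61 genes within sham and 151 within gamma, where edgeR called 134 and 354. Without F25 there were 1562 calls within the mixed field and 63 for the interaction, and without F37 there were 158 within gamma and 166 for the interaction. With F38 and F39 summed as 1 library, chosen after seeing the data, 111 were called within gamma and 167 for the interaction. With the mitochondrial genome left out, its list has no value. Leaving out each library in turn gave 3508 to 4499 calls in all, 13 to 15 for clock, 24 to 36 for splicing factors, 8 to 10 for the mitochondrial genome, 27 to 35 for the nuclear respiratory chain, 18 to 26 for mitochondrial ribosomal proteins, 17 to 26 for matrix and 16 to 23 for cytosolic ribosomal proteins. The counts within treatments ran from 66 (without F9) to 242 (without F8) for sham, from 395 (without F12) to 2377 (without F14) for the Western diet, from 1562 (without F25) to 3879 (without F22) for the mixed field and from 60 (without F17) to 810 (without F16) for gamma. The interaction ran from 58 (without F3) to 870 (without F22). F21-F40 and F1-F20 share no title numbers. With the title number as a replicate block, F minus M gave 4167 calls, 3891 of them among the 4209 without it. Deviations of F and M libraries with the same number had a median correlation of -0.00518, and 0 of 40 F libraries correlated best with the M library of their number.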
